A study of Homo sapiens with 6 samples.

Results

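The genes described are 10 ETS transcription factors, ETV1, SPDEF, EHF, ELF1, ELF2, ELK1, ELK3, ELK4, ETS2 and GABPA. They were chosen by name: the ETV1 locus is rearranged in the LNCaP prostate cancer line, and the ELK genes encode partners of serum response factor (SRF). All 10 symbols had a row in the count table of 17297 genes. RNA was sequenced from LNCaP cells, an androgen-responsive line from a lymph node metastasis of prostate cancer, that stably carried either the empty retroviral vector (pBabe-vector, wild type for GNA13) or wild-type GNA13 cDNA in the same vector (pBabe-GNA13, GNA13 overexpression), with 3 libraries per line. Both lines were transduced with a puromycin vector, each is a single transduced line, and whether it was a pool or a clone is not given in the sources used here. For each library, the same number of cells was seeded and cultured for 48 h. The question the design addresses is which transcripts differ when GNA13, which encodes the G protein subunit Gα13, is overexpressed.

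ETS proteins share a winged helix-turn-helix DNA-binding domain that reads a GGAA core. ELK1, ELK3 and ELK4 are the ternary complex factors: they sit on DNA beside SRF, are phosphorylated by ERK kinases and drive immediate early genes such as FOS and EGR1. Gα13 activates RHOA through RhoGEF proteins, and RHOA signalling frees the MRTF coactivators (MKL1 and MKL2), which compete with ternary complex factors for SRF. In prostate cancer, ETV1 is one of the ETS genes activated by rearrangement. In LNCaP cells the ETV1 locus of chromosome 7 is known to be inserted into chromosome 14 beside MIPOL1 and FOXA1. SPDEF and EHF are epithelial ETS factors of luminal and secretory cells, ELF1 and ELF2 are broadly expressed activators, ETS2 is a RAS and ERK responsive activator, and GABPA is the DNA-binding subunit of GABP, a regulator of mitochondrial and housekeeping genes.

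The libraries held between 33002160 and 40628970 assigned reads. One library of each line carries the tag std in its column heading (the pBabe-vector library labelled replicate 1, and a pBabe-GNA13 library that the heading ties only to its group), and the others are replicates 2 and 3. The heading of that pBabe-GNA13 library also carries the number 2, which the other column repeats, so the std libraries are matched by their tag and not by a number. Libraries with the same tag or number deviated together from their line's mean (r across 12778 genes of 0.659 for the std pair, 0.807 for the replicate 2 pair and 0.888 for the replicate 3 pair), so the libraries are described as 3 pairs. GNA13 itself stood at 820, 886 and 747 CPM (counts per 1000000 assigned reads, scaled by the trimmed mean of M values, TMM) in the pBabe-GNA13 std, replicate 2 and replicate 3 libraries, against 76.7, 69.4 and 65.4 CPM in pBabe-vector. Its log2 fold change was 3.54 ± 0.12 (SE, n = 3 per line, edgeR quasi-likelihood test with Benjamini-Hochberg adjustment over all genes, adjusted p = 9.12e-05). All 10 luminal markers checked, among them KLK3 and FOXA1, were detected in every library, with summed levels of 5946 to 9733 CPM. The 3 basal markers summed to 4.49 to 8.26 CPM in pBabe-GNA13 and to 2.38 to 2.48 CPM in pBabe-vector, the 3 fibroblast markers to between 11.6 and 24.7 CPM, and the 2 blood and vessel markers that could be analysed to between 6.58 and 30.6 CPM. KRT5, TP63, COL1A2 and DCN were at 0 counts in replicate 2 of both lines. TP63 and DCN were near the floor elsewhere too. TP63 was at 0 in every pBabe-vector library and reached 0.145 CPM in pBabe-GNA13. DCN reached 0.0238 CPM in pBabe-vector and 0.174 CPM in pBabe-GNA13. In the std and replicate 3 libraries, KRT5 stood at 3.08 and 3.72 CPM in pBabe-GNA13 and at 0.572 and 0.592 CPM in pBabe-vector, and COL1A2 at 2.57 and 2.53 CPM against 0.0477 and 0.0935 CPM. The part of these markers in the results was not tested.

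The promoter sequences of 4 members are shown because they represent the main kinds of pattern described here: ETV1 and GABPA were lowest in replicate 3 of both lines, and SPDEF and ELK4 were highest in the std library of both lines. Each is the 250 bases before the annotated transcription start (RefSeq, GRCh38.p14), written 5′ to 3′ on the gene's strand, with every GGAA or its complement TTCC, the ETS core, in capitals. For ETV1, which has 6 annotated starts in the table, the outermost is shown.
ETV1, chr7:13991426-13991675, minus strand: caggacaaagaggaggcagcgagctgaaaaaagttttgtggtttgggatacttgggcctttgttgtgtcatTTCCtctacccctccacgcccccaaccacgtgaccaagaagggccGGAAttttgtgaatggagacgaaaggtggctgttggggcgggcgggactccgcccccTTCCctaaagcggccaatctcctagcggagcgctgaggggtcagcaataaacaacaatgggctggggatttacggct
SPDEF, chr6:34556330-34556579, minus strand: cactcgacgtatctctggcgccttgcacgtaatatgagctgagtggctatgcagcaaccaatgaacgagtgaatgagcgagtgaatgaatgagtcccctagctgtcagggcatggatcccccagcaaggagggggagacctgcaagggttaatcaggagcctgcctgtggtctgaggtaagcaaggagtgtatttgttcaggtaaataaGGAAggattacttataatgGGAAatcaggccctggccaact
ELK4, chr1:205632012-205632261, minus strand: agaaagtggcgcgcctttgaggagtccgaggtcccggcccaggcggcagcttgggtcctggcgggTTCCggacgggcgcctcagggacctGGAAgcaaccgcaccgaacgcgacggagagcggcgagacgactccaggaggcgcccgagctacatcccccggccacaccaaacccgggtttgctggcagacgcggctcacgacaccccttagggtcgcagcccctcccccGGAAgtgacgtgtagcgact
GABPA, chr21:25734722-25734971, plus strand: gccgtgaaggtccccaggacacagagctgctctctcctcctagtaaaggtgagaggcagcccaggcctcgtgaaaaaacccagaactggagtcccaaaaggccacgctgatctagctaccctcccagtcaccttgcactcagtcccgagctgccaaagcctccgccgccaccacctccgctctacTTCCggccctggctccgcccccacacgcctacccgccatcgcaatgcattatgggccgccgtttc

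These windows held 3 ETS cores for ETV1, 2 for SPDEF, 3 for ELK4 and 1 for GABPA, counted on both strands. The core is common: 92.7% of all 35114 RefSeq windows of the same length held at least 1, with a median of 3. The longer motif CCGGAAG (or CTTCCGG), which overlaps the core, was found once each in the ELK4 and GABPA windows and in 8.52% of all windows. No other window of the 10 members held it. The CArG box, the site bound by SRF, was searched by name with any A or T letters in its centre and was in none of the members' 21 windows, against 1.16% of all windows. These matches describe letters in a window and not binding.

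Levels were first set side by side per exon length, as CPM divided by the exon length in kilobases (RPKM, Gencode 44 lengths on GRCh38), in the 3 pBabe-vector libraries. SPDEF was at 67.6 ± 11.4 RPKM (SD, n = 3) and EHF at 66.5 ± 10.1 RPKM, and these 2 epithelial factors did not differ beyond their spread. ETV1 followed at 41.8 ± 9.05 RPKM, below the lowest EHF library. Per exon length, ETV1 had a higher level than 93.3% of the 14459 genes with a length, whose median was 4.47 RPKM. The order of SPDEF, EHF and ETV1 rests on the exon lengths used, 1914, 6617 and 9592 bases. In CPM, ETV1 (mean of 401 in pBabe-vector, range 302 to 463) overlapped EHF (440, range 364 to 490) and stood above SPDEF (129).

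The ternary complex factors had unequal levels. ELK1 was at 17.4 ± 1.35 RPKM, ELK4 at 10 ± 1.14 RPKM and ELK3 at 2.01 ± 0.39 RPKM, and their ranges over the libraries did not overlap. Between ELK1 and ELK4 this order rests on the exon lengths used, 3398 and 12191 bases. In CPM, ELK4 (mean of 122 in pBabe-vector) stood above ELK1 (59.1). GABPA (7.9 ± 1.23 RPKM) overlapped with ELK4 above it. ELF1 (6.33 ± 0.439 RPKM) overlapped the neighbour above it, ETV3, while ELF2 (3.83 ± 0.335 RPKM) lay below both. ETS2 (1.97 ± 0.159 RPKM) was the lowest member and did not differ from ELK3 beyond the spread.

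**Figure D1:**
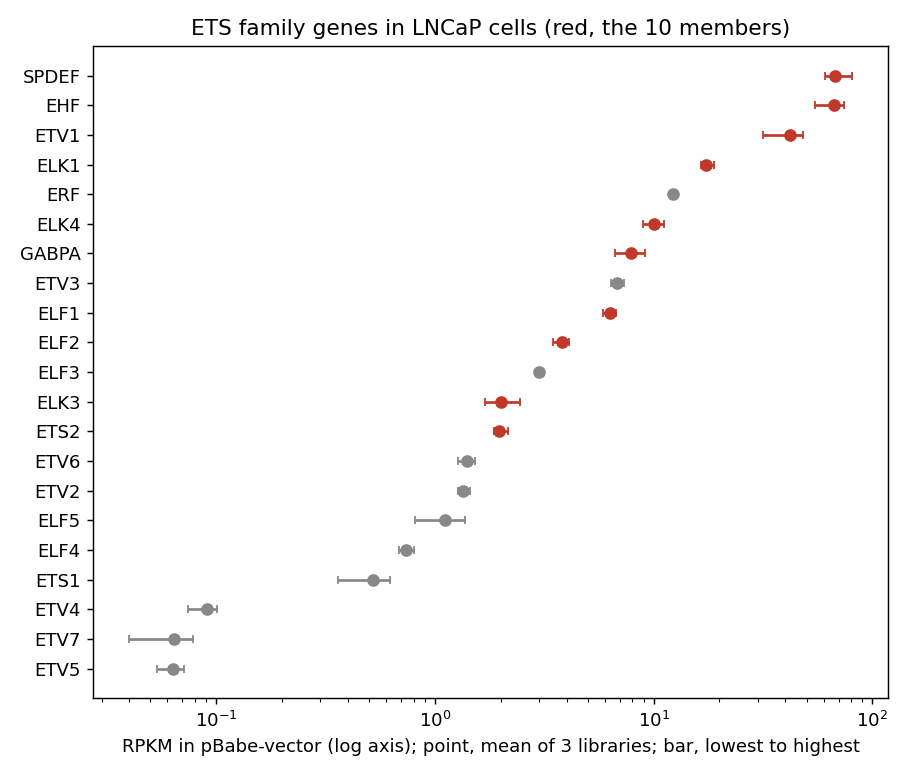
Level of 21 ETS family genes in the 3 pBabe-vector libraries, in RPKM on a log axis, with the mean as a point and the lowest and highest library as a bar. The 10 members (red) span from SPDEF at 67.6 to ETS2 at 1.97 RPKM, and the grey genes are the other family genes in the table, of which ERF was the highest at 12.3 RPKM.

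The closest relatives of ETV1, the PEA3 group genes ETV4 and ETV5, were near the bottom of the order at 0.091 ± 0.0143 and 0.0639 ± 0.00902 RPKM. ETV1 thus had the highest level of the 3 PEA3 group genes in this line. Per exon length, ERF, a repressor of the family, was the only gene outside the 10 members above the level of ELK4. The other 11 family genes in the table included ETV3 (6.79 RPKM), ELF3 (2.99), ETV6 (1.41), ETV2 (1.34), ELF5 (1.11), ELF4 (0.736), ETS1 (0.52) and ETV7 (0.0645). Of the 28 family genes listed, 7 (ERG, FLI1, FEV, ETV3L, SPI1, SPIB and SPIC) were not analysed here.

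None of the 10 members differed between pBabe-GNA13 and pBabe-vector past the threshold. At an adjusted p under 0.05 by edgeR's quasi-likelihood test, 0 of 10 members were called, beside 24 of all 17297 genes (0.139%). At an unadjusted p under 0.05 the count was also 0 of 10, beside 8.46% of all genes. With the library pair as a block the test called 3407 genes (19.7%, with 9.32% higher and 10.4% lower in pBabe-GNA13, and 23.3% among genes averaging at least 1 CPM), of which 0 were members, and DESeq2 and limma-trend also called none of them. The median log2 fold change of the members was 0.03, beside -0.0013 over all genes. For no member were the 2 lines' libraries without overlap, beside 14.1% of all genes. In bulk RNA, fewer cells transcribing a gene and less RNA per cell cannot be told apart.

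ETV1 stood at 457, 478 and 348 CPM in the pBabe-GNA13 std, replicate 2 and replicate 3 libraries and at 463, 438 and 302 CPM in the matching pBabe-vector libraries. The lines overlapped, and the pBabe-GNA13 library was the higher of the pair in 2 of 3 pairs. The log2 fold change was 0.09 (95% confidence interval -0.35 to 0.54, edgeR adjusted p = 0.987), and with the pair as a block 0.1 (-0.0035 to 0.21, adjusted p = 0.18). Without the std pair the blocked value was 0.17 and passed the threshold (edgeR adjusted p = 0.0245), whereas without the replicate 3 pair it was 0.06 (edgeR adjusted p = 0.671).

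ELK4, a ternary complex factor, stood at 147, 126 and 131 CPM in pBabe-GNA13 and at 136, 122 and 108 CPM in pBabe-vector, in the same library order. It was higher in pBabe-GNA13 in 3 of 3 pairs, although the lines overlapped. Its log2 fold change of 0.14 (-0.13 to 0.42, edgeR adjusted p = 0.878) was the highest among the members, and with the pair as a block it was 0.15 (0.04 to 0.26, adjusted p = 0.0569). This value lay beside the threshold: the blocked test passed it with offsets for GC content and length (0.16, adjusted p = 0.0397), without the replicate 2 pair (0.19, adjusted p = 0.0291) and without the std pair (0.17, adjusted p = 0.0487), and did not without the replicate 3 pair (0.09, edgeR adjusted p = 0.503) or with each chromosome's median subtracted (0.12, adjusted p = 0.146).

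The other ternary complex factors lay close to 0. ELK1 stood at 59.5, 53.1 and 62.2 CPM in pBabe-GNA13 and at 57.2, 55.8 and 64.3 CPM in pBabe-vector, a log2 fold change of -0.02 (-0.26 to 0.22). ELK3 stood at 11.9, 8.73 and 8.49 CPM against 11.4, 8.8 and 7.88 CPM, a log2 fold change of 0.05 (-0.42 to 0.53). ELK3 lies on chromosome 12, where the median log2 fold change of all genes was 0.3, and relative to that median its value was -0.24, so its direction depends on this choice (edgeR adjusted p = 0.116 with the block). For both genes the libraries of the 2 lines overlapped.

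Among the epithelial factors, SPDEF stood at 158, 132 and 128 CPM in pBabe-GNA13 and at 155, 117 and 117 CPM in pBabe-vector. It was the higher of the pair in pBabe-GNA13 in 3 of 3 pairs (log2 fold change 0.1, -0.24 to 0.44), and the blocked test did not pass (edgeR adjusted p = 0.157). EHF stood at 456, 416 and 406 CPM against 490, 466 and 364 CPM, with pBabe-GNA13 higher in the replicate 3 pair only (log2 fold change -0.05, -0.36 to 0.26). The 2 factors with near-equal levels per length were thus both within the spread of their libraries.

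The remaining members were equally close. ELF1 ranged from 24.2 to 30.1 CPM in pBabe-GNA13 and from 26.1 to 30 CPM in pBabe-vector (log2 fold change -0.04, -0.32 to 0.25). ELF2 ranged from 29.8 to 33.1 CPM and from 29.6 to 35.2 CPM (-0.05, -0.3 to 0.21). ETS2, at 11.1, 10.8 and 10.2 CPM against 10.7, 9.27 and 9.47 CPM, was higher in pBabe-GNA13 in 3 of 3 pairs (0.12, -0.18 to 0.43), and the lines overlapped. GABPA stood at 48.3, 48.4 and 40.6 CPM against 52.5, 45.2 and 38.4 CPM (0.01, -0.31 to 0.33). GABPA shares 692 bases of exon, 12.1% of its exon length, with ATP5PF on the opposite strand (ATP5J in the table), and ELK4 shares 422 bases (3.46%) with MFSD4A. ELK3 (209 bases, 4.5%) and ETS2 (112 bases, 2.25%) also share exon with genes without a symbol on the opposite strand. Whether the counting used strand is not given in the sources used here, so reads in these stretches cannot be assigned with certainty.

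**Figure D2:**
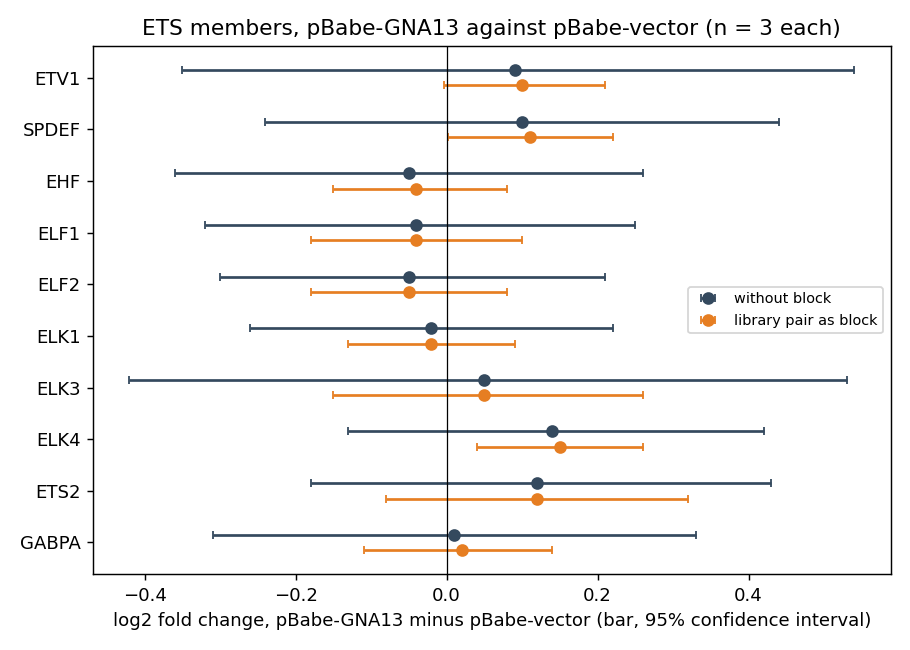
Log2 fold change of each member, pBabe-GNA13 minus pBabe-vector (n = 3 libraries per line), with bars for the 95% confidence interval, without the library pair as a block (dark) and with it (orange). All 10 intervals without the block include 0. With the block the intervals are narrower, and those of SPDEF (0.0017 to 0.22) and ELK4 (0.04 to 0.26) lie above 0 before adjustment over all genes.

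The exact two-sided permutation test of log2 CPM, 3 libraries against 3, cannot go below p = 0.1 in this design. Among the members its p ranged from 0.2 for ETS2 to 1 for GABPA. The intervals bound what these libraries can show: without the block, the widest interval was that of ELK3 and reached 0.53, and for ETV1 it reached 0.54 on the log2 scale.

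More members were called between library pairs than between the lines. The test of the pair terms (edgeR quasi-likelihood F test with the line in the fit, Benjamini-Hochberg over all genes) called 7 of 10 members, beside 47.4% of all genes and 56.5% of the genes averaging at least 1 CPM, which all 10 members did. The members called were ETV1, SPDEF, GABPA, ELK3, EHF, ELK4 and ELK1. Those not called were ELF1 (adjusted p = 0.0616), ELF2 (0.0864) and ETS2 (0.489). With a background this high, the count describes these libraries and is not particular to ETS genes. With offsets for GC content and length, chosen after the data were seen, 8 of 10 were called, ELF1 being added (edgeR adjusted p = 0.0259).

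ETV1 had the smallest adjusted p of the members in this test (1.82e-07). It was lowest in replicate 3 of both lines, at 348 CPM in pBabe-GNA13 and 302 CPM in pBabe-vector, while the other 4 libraries lay between 438 and 478 CPM and did not overlap with these. Replicate 3 was at 0.707 times replicate 2, a log2 difference of -0.5 ± 0.06 (SE). The difference was -0.46 within pBabe-GNA13 and -0.54 within pBabe-vector, and the std library differed from replicate 2 by 0.01 ± 0.06. GABPA followed the same order, with a log2 difference of -0.24 ± 0.07 between replicates 3 and 2 (edgeR adjusted p = 0.000721) and 40.6 and 38.4 CPM in the replicate 3 libraries. EHF differed by -0.36 within pBabe-vector and by -0.03 within pBabe-GNA13 (-0.19 ± 0.07 over both, edgeR adjusted p = 0.00276), and its 2 highest and its lowest libraries were all pBabe-vector.

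SPDEF, ELK3 and ELK4 had another order. In both lines the std library was the highest. For SPDEF the std library exceeded replicate 2 by 0.33 ± 0.06 on the log2 scale, or 1.26-fold (edgeR adjusted p = 3.65e-05), and replicate 3 differed from replicate 2 by -0.02 ± 0.06. For ELK3 the std difference was 0.41 ± 0.12, or 1.33-fold (edgeR adjusted p = 0.00189), and for ELK4 it was 0.19 ± 0.07, or 1.14-fold (edgeR adjusted p = 0.00706). Replicate 3 differed from replicate 2 by -0.1 ± 0.13 for ELK3 and by -0.05 ± 0.07 for ELK4. ELK1 was the only member called with replicate 3 as the highest library of both lines, at 62.2 and 64.3 CPM (0.22 ± 0.07 against replicate 2, edgeR adjusted p = 0.0249). The ELK genes therefore did not share one order over the cultures.

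Replicate 3 was the lowest library of both lines for 5 members (ETV1, EHF, ELF1, ELK3 and GABPA), beside 28.0% of all genes and 31.3% of genes averaging at least 1 CPM. The std library was the highest of both lines for 5 members (SPDEF, EHF, ELK3, ELK4 and ETS2), beside 15.3% of all genes and 16.7% of genes averaging at least 1 CPM. The luminal markers KLK3, TMPRSS2 and KLK2, which are androgen-induced, moved with the replicate 3 difference. KLK3 stood at 2445 and 1836 CPM in replicate 3 of pBabe-GNA13 and pBabe-vector, against 4204 and 3784 CPM in replicate 2. TMPRSS2 stood at 455 and 415 CPM against 1098 and 969 CPM, and KLK2 at 170 and 83.3 CPM against 371 and 171 CPM. All 10 luminal markers summed to 6862 and 5946 CPM in replicate 3 and to 9733 and 8730 CPM in replicate 2. Unlike ETV1, these 3 markers were also lower in the std libraries than in replicate 2, by 0.55, 0.48 and 0.86 on the log2 scale for KLK3, TMPRSS2 and KLK2. Their part in the ETS differences was not tested. Replicate 3 minus replicate 2 had a median of 0.03 among the 3058 genes with the lowest GC content and of -0.06 among the 3051 with the highest, and the ETV1 value with GC and length offsets was -0.52.

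**Figure D3:**
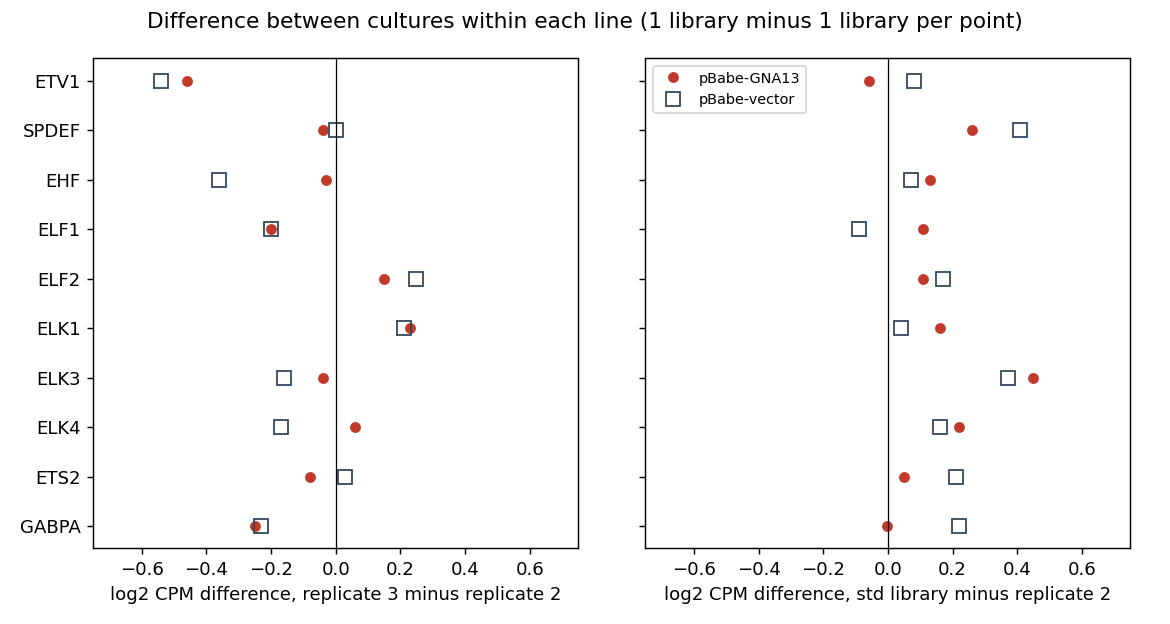
Log2 CPM difference of each member between cultures within each line, replicate 3 minus replicate 2 (left) and std library minus replicate 2 (right), with pBabe-GNA13 as filled circles and pBabe-vector as open squares, each point 1 library minus 1 library. ETV1 (-0.46 and -0.54) stands apart on the left, and SPDEF (0.26 and 0.41) and ELK3 (0.45 and 0.37) on the right.

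Of the other 11 ETS genes in the table, ETV6 and ELF5 differed between the lines once the library pair was taken into account. ETV6, a repressor of the family, stood at 14.3, 13.1 and 13.8 CPM in pBabe-GNA13 and at 10.3, 9.24 and 11.1 CPM in pBabe-vector, with no overlap. Its log2 fold change was 0.42 ± 0.13 (SE, edgeR adjusted p = 0.392) without the block and 0.43 ± 0.09 with it (adjusted p = 0.00129). ETV6 lies on chromosome 12, and relative to that chromosome's median of 0.3 the blocked value was 0.13 (edgeR adjusted p = 0.404). The excess of ETV6 over its chromosome was thus not past the threshold.

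ELF5, an epithelial factor best known from mammary and placental development, was lower in pBabe-GNA13 in 3 of 3 pairs. It stood at 3.77, 2.88 and 2.27 CPM in pBabe-GNA13 and at 6.77, 5.58 and 3.99 CPM in pBabe-vector, again without overlap. The log2 fold change was -0.87 ± 0.27 (SE, edgeR adjusted p = 0.392) without the block and -0.87 ± 0.14 with it (adjusted p = 5.26e-05). The blocked call stayed past the threshold relative to the chromosome median (-0.82, edgeR adjusted p = 0.000165). ELF5 and EHF are neighbours on chromosome 11, 95.9 kb apart (ELF5 at chr11:34478791-34525193 and EHF at chr11:34621093-34663288, GRCh38), yet EHF had a blocked value of -0.04 ± 0.06. Of the 21 family genes, 2 were called with the block, beside 19.7% of all genes.

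The 10 members lie on 9 chromosomes, and ETV1 (chr7:13891229-13991425, minus strand) and ELK4 (chr1:205597556-205632011, minus strand) were also compared with their neighbours. The 14 listed genes beside the insertion site on chromosome 14 (12 analysed) had a median log2 fold change of -0.05, and 0 were called without the block. MIPOL1, the gene known to receive the insertion, had 0.06 ± 0.1 and FOXA1, a pioneer factor of luminal cells 10.4 kb from it, 0.12 ± 0.13, beside 0.09 ± 0.19 for ETV1. With the block 2 of the 12 were called, beside 19.7% of all genes: SEC23A (-0.32, edgeR adjusted p = 9.76e-05) and TTC6 (-0.18, adjusted p = 0.0135) were lower in pBabe-GNA13. Relative to the chromosome median TTC6 no longer passed (-0.14, edgeR adjusted p = 0.0782), and SEC23A did (-0.28, adjusted p = 0.000787). The pair test called 7 of the 12, beside 47.4% of all genes, and they did not share one direction. Between replicates 3 and 2, TTC6 (-0.49 ± 0.06), FOXA1 (-0.34 ± 0.06) and SEC23A (-0.3 ± 0.07) were lower in replicate 3, as ETV1 was (-0.5 ± 0.06). SLC25A21 (0.72 ± 0.21), PNN (0.43 ± 0.07) and GEMIN2 (0.39 ± 0.11) were higher, and TRAPPC6B had 0.06 ± 0.07 there and 0.23 ± 0.07 between the std library and replicate 2. MIPOL1 differed by -0.15 ± 0.07 (edgeR adjusted p of the pair test 0.129).

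Of the genes at the native ETV1 site on chromosome 7, 13 of 16 were analysed and 0 were called without the block. With it 5 of the 13 were called, beside 19.7% of all genes. SCIN (2.3, edgeR adjusted p = 0.00213) and VWDE (1.99, adjusted p = 0.0146) were higher and AGMO (-1.75, adjusted p = 0.04), TSPAN13 (-0.49, adjusted p = 1.55e-06) and BZW2 (-0.16, adjusted p = 0.0321) lower in pBabe-GNA13. Relative to the chromosome median AGMO (edgeR adjusted p = 0.0577) and BZW2 (edgeR adjusted p = 0.117) no longer passed, and BZW2 also did not with GC and length offsets (edgeR adjusted p = 0.0536). SCIN, VWDE and AGMO were each under 1 CPM in all 6 libraries. The adjacent DGKB had 0.09 ± 0.12. FOXA1, MIPOL1, TTC6, SLC25A21, PNN, GEMIN2, TSPAN13, BZW2 and DGKB, and the genes called with the block that are outside the 3 smallest p of a list, are named after their values were seen.

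Beside ELK4, SLC45A3 is an androgen-regulated gene 25.8 kb away on the same strand, and read-through transcripts joining SLC45A3 to ELK4 are known in prostate cancer cells. SLC45A3 stood at 314, 278 and 199 CPM in pBabe-GNA13 and at 278, 233 and 140 CPM in pBabe-vector. It was higher in pBabe-GNA13 in 3 of 3 pairs (0.28 ± 0.26 without the block, and 0.31 ± 0.06 with it, edgeR adjusted p = 0.000196). SLC41A1, a magnesium transporter gene of the same neighbourhood, had a blocked value of 0.27 ± 0.06 (edgeR adjusted p = 0.000869). ELK4 and its 6 analysed neighbours had a median log2 fold change of 0.14, and 2 of the 7 were called with the block, near the share of 23.3% among genes averaging at least 1 CPM. Between replicates 3 and 2, SLC45A3 differed by -0.6 ± 0.07 and ELK4 by -0.05 ± 0.07. Gene counts cannot separate ELK4 transcripts from read-through ones.

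The partners and regulators of the members had few calls. Of 14 SRF partners, GABP subunits and ETV1 regulators (13 analysed), 0 were called without the block (median -0.0035) and 1 with it, MKL2 (MRTFB), an MRTF coactivator of SRF. MKL2 stood at 70.1, 66.3 and 68.7 CPM in pBabe-GNA13 and at 77.4, 72.8 and 76.6 CPM in pBabe-vector (-0.15 ± 0.05, edgeR adjusted p = 0.0442), and relative to its chromosome the value was -0.11 (adjusted p = 0.177). SRF had -0.11 ± 0.1 and MKL1 -0.15 ± 0.12. TRIB2, a Tribbles pseudokinase, had the smallest p of this list (1.76 ± 0.57, edgeR adjusted p = 0.411) with 0.0312 to 0.465 CPM.

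In the cascade from RAS and RHOA to the kinases that phosphorylate ternary complex factors, 0 of 20 genes were called without the block (median -0.03), and 4 with it, a share close to the 19.7% of all genes. Among these, RPS6KA1, which encodes the kinase RSK1 (0.18, edgeR adjusted p = 0.018), was higher and RPS6KA3, which encodes RSK2 (-0.23, edgeR adjusted p = 0.00251), lower in pBabe-GNA13. Relative to their chromosomes' medians, RPS6KA3 remained past the threshold (-0.18, edgeR adjusted p = 0.0198) and RPS6KA1 did not (0.16, edgeR adjusted p = 0.0556). RHOA itself differed by 0.01 ± 0.11.

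Genes used as readouts of ETS activity were mixed. Of 13 ERK output genes, such as the feedback inhibitors SPRY2, SPRY4 and DUSP6, 0 were called without the block (median 0.07) and 1 with it, DUSP4, a nuclear MAP kinase phosphatase (0.27, edgeR adjusted p = 0.0039). SPRY2 (0.49 ± 0.25), SPRY4 (1.09 ± 0.54) and PHLDA1 (0.87 ± 0.45) had the smallest p of this list, with edgeR adjusted p of 0.683 to 0.709. Of 16 ternary complex factor targets, 0 were called without the block (median 0.01) and 3 with it, a share close to the 19.7% of all genes. The 3 were higher in pBabe-GNA13. BTG2, an antiproliferative immediate early gene, stood at 46.2, 48.8 and 35.8 CPM against 28.2, 30.9 and 24.3 CPM, with no overlap (0.65 ± 0.15 without the block, edgeR adjusted p = 0.265, and 0.65 ± 0.06 with it, adjusted p = 1.41e-08). NR4A1, an orphan nuclear receptor on chromosome 12, had 0.34 (edgeR adjusted p = 0.00607), and 0.05 relative to its chromosome. FOS was at 5.23 CPM in the pBabe-GNA13 replicate 2 library and between 0.378 and 1.24 CPM in the other 5, and was higher in pBabe-GNA13 in 2 of 3 pairs (1.15 ± 0.31 with the block, edgeR adjusted p = 0.00901). EGR1, the standard ternary complex factor target, had 0.01 ± 0.3, and EGR3 had 1.6 ± 0.61 (edgeR adjusted p = 0.514) with 0.0312 to 0.382 CPM.

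Of 8 mitochondrial genes known as GABP targets, 7 had a value below 0 (median -0.08), beside 8707 of all 17297 genes, and 0 were called without the block. With it 1 was called, which is no more than the 19.7% of all genes. TFAM, the mitochondrial DNA packaging and transcription factor, stood at 143, 124 and 150 CPM in pBabe-GNA13 and at 165, 151 and 170 CPM in pBabe-vector, with no overlap (-0.22 ± 0.11, edgeR adjusted p = 0.665, and -0.22 ± 0.05 with the block, adjusted p = 0.00223). COX5B (0.11 ± 0.09) and COX7A2 (-0.1 ± 0.1), subunits of cytochrome c oxidase, did not pass. GABPA itself had 0.02 ± 0.06 with the block.

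The genes most like ETV1 over the 6 libraries were found as the smallest root-mean-square difference of log2 CPM centred on each gene's mean, among 14058 genes. They were the histone demethylase gene KDM4A (0.023), ZMYM2 (0.0248), which encodes a zinc finger corepressor subunit, the kinase gene NLK (0.0342), CXorf23 (0.0349) and MYO6 (0.0381), an unconventional myosin. They lie on chromosomes 1, 13, 17, X and 6, and each was lower in replicate 3 than in replicate 2, by 0.46 to 0.51 on the log2 scale. The nearest ETS gene was GABPA (0.115, rank 421), followed by EHF (0.154, rank 1118), and the ternary complex factors were farther (ELK4 0.188, ELK3 0.196, ELK1 0.331). All these distances rest on the same 6 libraries and their shared pair differences.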

How the data were processed

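RNA from 6 LNCaP libraries was read as a table of gene counts. Per the study's methods, the authors checked reads with FastQC 0.11.7, aligned them with STAR to a Gencode reference and counted them per gene with featureCounts. The methods describe log2 CPM values, but the deposited values are whole numbers with a different total in each library, and were read here as counts. The strand setting is not given in the sources used here. Counts of all 17297 genes were tested without a filter by edgeR 4.0.16 (TMM, glmQLFit, glmQLFTest, R 4.3.3), Benjamini-Hochberg over all genes, calls at adjusted p under 0.05. The fit without a block was the main one, and alternatives used the library pair as a block, DESeq2 1.42.0, limma-trend (limma 3.58.1) and other settings. The scripts were tested on simulated data with 200 changed genes. Pairs come from the heading tag std and replicate numbers. The tag and the numbers were taken to pair the samples. Libraries of different pairs correlated between -0.736 and 0.125. Each line was centred on the mean of its own libraries, which lowers the values between different pairs. These values are therefore not separate evidence for the pairing. CPM used TMM, with a prior count of 2 for log2 values. Lengths came from Gencode 44 (GRCh38), matched for 14459 genes (83.6%), and older symbols make them approximate. The p-values measure the spread between cultures of 1 line per construct.

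The members and lists were chosen with earlier results of these data known. Named genes were the members, GNA13, the ETS family, the 3 smallest p of each other list plus any called, and the 5 profiles nearest to ETV1. Some genes of these lists enter the counts but are not reported here by name. Promoters came from RefSeq (GRCh38.p14).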

Additional observations from a re-analysis of the deposited data

How the results depend on the processing

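Over all settings, GNA13 stayed past the threshold, with a log2 fold change of 3.46 to 3.6 when libraries or pairs were left out. The number of genes called between the lines was 24, and it was 280 with DESeq2, 8 without the abundance trend, 5 with limma-trend, 3407 with the library pair as a block (replicate block), 2402 with the block and each chromosome centred, and 3348 with the block and GC and length offsets. It was 2 (without the pBabe-GNA13 std library) to 15 with 1 library left out, and in the blocked fit 2550 without the replicate 2 pair, 2250 without the replicate 3 pair and 3266 without the std pair. Members called were 0, except 1 (ELK4) with the block and GC and length offsets, and in the blocked fit 1 (ELK4) without the replicate 2 pair, 0 without the replicate 3 pair and 2 (ELK4 and ETV1) without the std pair. The block changed no member's call. For the 10 members, 151 of 180 values under alternatives kept direction and side of the threshold, 4 passed it (ELK4 3 times, ETV1 once), and 25 changed sign, none of them past it. With each chromosome centred, EHF was 0.01, ELK1 0.03 and ELK3 -0.24, with and without the block. In the blocked fit, signs changed without the replicate 2 pair for EHF (0.02), ELK1 (0.00089) and GABPA (-0.03), without the replicate 3 pair for ELF1 (0.01), ELK1 (0.01) and GABPA (-0.004), and without the std pair for EHF (0.00045).

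With 1 library left out, the ranges were -0.07 to 0.23 for ETV1, which was below 0 only without pBabe-vector replicate 3, -0.17 to 0.04 for EHF, -0.1 to 0.05 for ELF1, -0.11 to 0.01 for ELF2, -0.06 to 0.05 for ELK1, -0.11 to 0.22 for ELK3 and -0.1 to 0.13 for GABPA. SPDEF, ELK4 and ETS2 stayed above 0. The pair test called 8193 genes and 7 members. Without the replicate 3 pair it called 3138 and 2, without the replicate 2 pair 6070 and 7, and without the std pair 7757 and 5. Limma-trend called 4443 genes and 3 members, and the fit without the abundance trend 4 members. The cause of these differences was not tested. Depth limits the low genes named: 1 read was worth 0.0238 to 0.0312 CPM.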

Other observations

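Keratins of luminal cells were higher in pBabe-GNA13, by amounts near the median of their chromosome. KRT8 had a log2 fold change of 0.33 ± 0.09 and KRT18 of 0.25 ± 0.11 (SE, n = 3 per line). Both genes lie on chromosome 12, where the median of all genes was 0.3. With the library pair as a block both passed the threshold (edgeR adjusted p = 3.96e-05 and 0.000504), and without it neither did (0.35 and 0.593). KRT14, a basal keratin gene on chromosome 17, had 1.11 ± 0.2 (edgeR adjusted p = 0.142 without the block and 1.71e-05 with it). HOXB13, a homeobox factor of the prostate, had 0.12 ± 0.09 and was called in neither fit.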
